A study of Mus musculus with 6 samples.

Results

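The genes described here are the 37 genes of the mouse mitochondrial genome, chosen as every row of the deposited expression values whose symbol starts with mt-. They comprised 13 mRNAs, 2 rRNAs and 22 tRNAs, out of 54752 genes in all. RNA was measured by RNA immunoprecipitation sequencing (RIP-seq), in which the RNA that comes down with an antibody (the IP) is sequenced beside the RNA of the same lysate (the input), in bone marrow cells of adult mice. The cells were grown over 5 days in medium with doxycycline (Dox) and 20 ng/mL of IL-7, a cytokine that favours B cell progenitors. The tet-LIN28B group held 2 mice that carried 1 copy of a Dox-inducible, Flag-tagged human LIN28B cDNA at Col1a together with the Rosa26 rtTA*m2 activator. The control was 1 littermate heterozygous for Rosa26 rtTA*m2 alone, so the activator, IL-7 and Dox were shared by all 3 mice. An input and an anti-Flag IP were sequenced from each mouse, 6 libraries in all. The control IP holds RNA that stayed on the beads with no tagged protein present, and it came from a single mouse. The cultures were not sorted, so a level is an average over whatever cells grew in them, and fewer cells of a type cannot be told apart from less RNA per cell.

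LIN28B binds RNA and is made mainly before birth. It blocks maturation of the let-7 microRNAs and also binds many mRNAs, for which GGAG is its best-known short motif. It is known as a protein of the cytoplasm and nucleolus. Mitochondrial DNA is transcribed inside the organelle from both strands into long precursors, which are cut largely at the tRNAs that stand between the other genes. The mRNAs encode core subunits of the respiratory chain and of ATP synthase, the rRNAs build the mitochondrial ribosome, and the tRNAs serve translation there. Most mitochondrial mRNAs of mammals carry short poly(A) tails, a feature that matters for libraries primed with oligo(dT). The L-strand mRNA mt-Nd6 is known as an exception.

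The sequences below are those on which the tRNA results and the comparison of overlapping mRNAs rest, taken from the GRCm38 mitochondrial chromosome with GENCODE M21 gene ends and written 5′ to 3′ on the strand of the gene. Capitals mark GGAG. The tRNAs mt-Ts1 (serine, chrM:6870-6938, minus strand) and mt-Te (glutamate, chrM:14071-14139, minus strand) had the most fragments in the tet-LIN28B IPs, and mt-Tq (glutamine, chrM:3772-3842, minus strand) and mt-Tn (asparagine, chrM:5089-5159, minus strand) had the most in an input. The last sequence is the stretch shared by mt-Atp8 and mt-Atp6 (chrM:7927-7969, plus strand), which lie in overlapping frames of the same transcript.
mt-Ts1: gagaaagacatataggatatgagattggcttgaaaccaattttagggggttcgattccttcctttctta
mt-Te: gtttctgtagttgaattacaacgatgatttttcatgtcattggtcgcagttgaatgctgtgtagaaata
mt-Tq: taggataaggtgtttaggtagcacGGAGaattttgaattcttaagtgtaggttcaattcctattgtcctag
mt-Tn: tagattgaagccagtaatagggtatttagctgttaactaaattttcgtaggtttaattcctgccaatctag
mt-Atp8/mt-Atp6 overlap: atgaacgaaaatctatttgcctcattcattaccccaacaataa

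Values were deposited as FPKM, fragments scaled to transcript length and library size, with sums of 1144868 to 1384941 FPKM per library. The depth, estimated from the steps between low values, was 14400000 and 17500000 fragments in the tet-LIN28B IPs, 19100000 and 17700000 in their inputs, 14400000 in the control IP and 21200000 in the control input. The same fit put the mean fragment at 198 and 183 nt in the tet-LIN28B IPs, shorter than the 228 to 240 nt of the other 4 libraries. All 11 markers of B cell progenitors were at 1 FPKM or more in all 3 inputs. So were all 8 myeloid markers, which summed to 7429 and 4648 FPKM in the inputs of the tet-LIN28B mice and 6397 FPKM in that of the control, while Col3a1 and Pdgfrb of stromal cells were at 0. All 3 megakaryocyte markers (807 and 439 FPKM in the tet-LIN28B inputs, 447 FPKM in the control input) and all 4 T cell markers (81.3 and 28.8 FPKM, against 26.8 FPKM) were also at 1 FPKM or more in all 3 inputs, as against 1 of 5 erythroid and 0 of 3 NK cell markers. The summed myeloid markers were lower in every IP than in its input, at 2527 and 1670 FPKM in the tet-LIN28B IPs and 2774 FPKM in the control IP. The summed B cell progenitor markers were lower in every IP too, at 9803 and 10044 FPKM in the tet-LIN28B IPs against 11320 and 13834.5 FPKM in their inputs. In the control they were at 11135 FPKM in the IP and 14406.5 FPKM in the input. The part of cells other than B cell progenitors in the mitochondrial values was not tested. The mouse Lin28b gene stayed at or below 1.03 FPKM everywhere, which does not measure the human cDNA.

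Mitochondrial mRNAs were abundant in the inputs and scarce in the IPs. The 13 mRNAs summed to 3572 and 5390 FPKM in the tet-LIN28B IPs, against 83155 and 81299 FPKM in the inputs of the same mice. In the control they summed to 26808 FPKM in the IP and 77347 FPKM in the input. The mRNAs thus held 0.283% and 0.437% of the FPKM of the tet-LIN28B IPs and 2.34% of the control IP, all below the 5.58% to 6.29% of the inputs. As a ratio of IP to input, the mRNA sum came to 0.0546 ± 0.0165 in the tet-LIN28B mice (SD, n = 2) and 0.347 in the control mouse.

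The other 2 classes behaved differently from the mRNAs and from each other. The rRNAs summed to 6019 and 3683 FPKM in the tet-LIN28B IPs, against 27747 and 21043 FPKM in their inputs, with 5877 FPKM in the control IP and 16005 FPKM in the control input. Their IP/input ratio was 0.196 ± 0.0296 in the tet-LIN28B mice (SD, n = 2) and 0.367 in the control mouse, a smaller gap than for the mRNAs. The tRNAs summed to 35967 and 36694 FPKM in the tet-LIN28B IPs, against 2564 and 0 FPKM in their inputs, and were at 0 in both control libraries. Nearly all of the tRNA sum in the IPs was the single gene mt-Ts1, and the zeros of this class cannot be read as absence, for the reason of length given with the tRNA values.

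**Figure D1:**
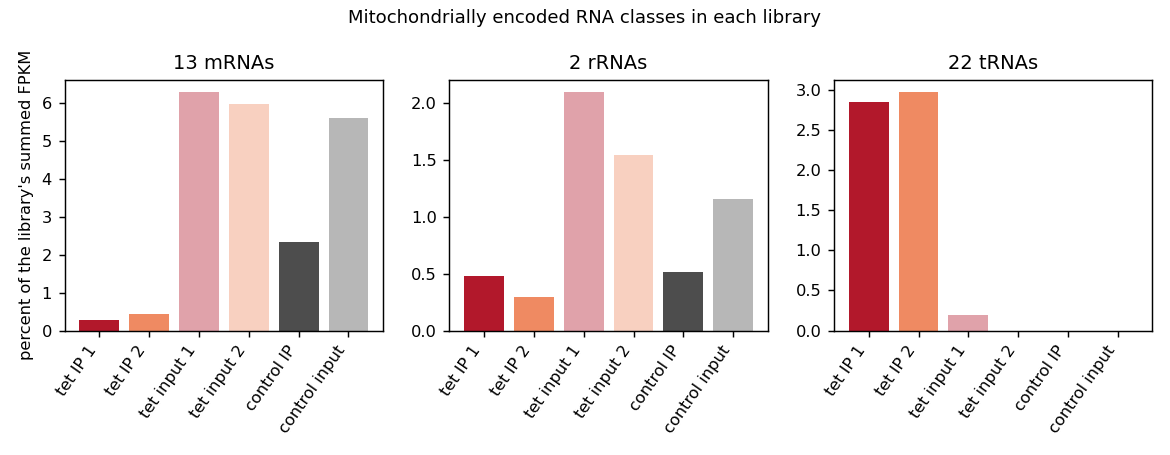
Percent of each library's summed FPKM that came from the 13 mRNAs, the 2 rRNAs and the 22 tRNAs of the mitochondrial genome, 1 bar per library with no error bar (dark bars, IP; pale bars, input; red and orange, tet-LIN28B mice 1 and 2; grey, control). The mRNA bars of the tet-LIN28B IPs are the lowest at 0.283% and 0.437%, the control IP is at 2.34%, and the tRNA bars are high only in the tet-LIN28B IPs.

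The IP was compared with the input within each mouse as log2((IP + 1)/(input + 1)). This asks whether a transcript held a larger or smaller share of the IP library than of the input library. FPKM are scaled to library size, so the ratio does not measure the amount of RNA that an IP recovered. A share also falls when other RNA takes up more of the library, and the part of this in the differences to the control was not tested. limma tested the mean of both tet-LIN28B mice against 0, and against the control mouse, with adjustment over the 6330 genes that averaged at least 10 FPKM, and an adjusted p under 0.05 was called. All 13 mRNAs and both rRNAs passed this filter, and so did 10 tRNAs, for which no call is used here. In the tet-LIN28B mice the IP was called below the input for all 13 mRNAs and 1 of 2 rRNAs and above it for none, where 37.8% of all tested genes were called lower and 23.8% higher. Relative to the control, 12 of 13 mRNAs and 1 of 2 rRNAs had a lower IP/input ratio and none a higher one, where 17.7% of all tested genes were called lower and 5.07% higher. The calls against the control rest on 1 residual degree of freedom and on the filter. With all 12511 genes that averaged at least 1 FPKM, 0 mRNAs or rRNAs passed the limma test against the control after adjustment (lowest adjusted p = 0.0766), though 13 had an unadjusted p under 0.05. Under the filter of 10 FPKM, 7 passed when IP and input were not paired by mouse.

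Over the 13 mRNAs, the median log2 IP/input was -4.22 in tet-LIN28B mice, beside -0.18 over all tested genes. The median difference to the control was -2.86, beside -0.30 over all tested genes. The control IP was itself poor in these transcripts, with a median log2 IP/input of -1.40 over the 13 mRNAs, beside 0.02 over all tested genes. In the control mouse 12 of 13 mRNAs had an IP/input ratio below 0.5, which only 2.7% of all tested genes had. The ratio was below 0.5 in both tet-LIN28B mice for 13 of 13 mRNAs (22.9% of all tested genes), and below that of the control in both tet-LIN28B mice for 12 of 13 (56.5% of all tested genes). Mouse 1 had the lower ratio of the tet-LIN28B pair for 11 of the 13.

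**Figure D2:**
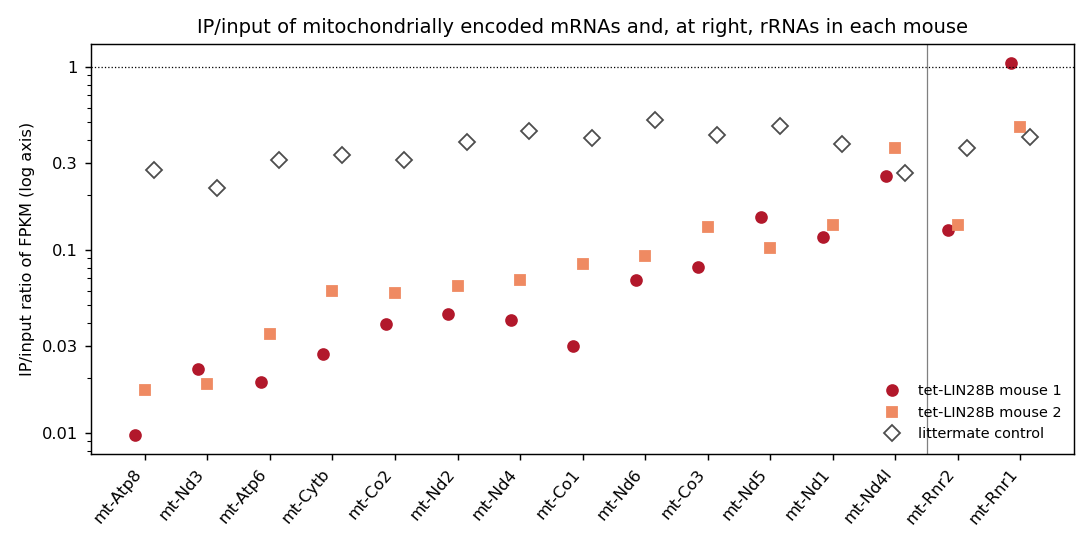
IP/input ratio of FPKM on a log axis for the 13 mRNAs, ordered by the mean of the tet-LIN28B mice, and for the 2 rRNAs at right, with 1 point per mouse (red circles and orange squares, tet-LIN28B mice 1 and 2; open diamonds, control). The control lies between 0.219 and 0.511 for all mRNAs and above both tet-LIN28B mice for all of them except mt-Nd4l.

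Complex I, the NADH dehydrogenase that feeds electrons into the chain, takes 7 of its subunits from the mitochondrial genome. Their median difference to the control was -2.68 on the log2 scale. mt-Nd3, a small membrane subunit (chrM:9459-9806), was the lowest of them, at 67.2 and 60.8 FPKM in the tet-LIN28B IPs and 3017 and 3286 FPKM in the inputs of the same mice. In the control mt-Nd3 was at 617 FPKM in the IP and 2818 FPKM in the input. Both tet-LIN28B IPs thus lay far below the control IP while the control input was the lowest of the inputs by a small margin, and the IP/input ratio was 0.0204 ± 0.00266 in tet-LIN28B mice (SD, n = 2) and 0.219 in the control. The log2 difference to the control was -3.41 ± 0.31 (SE; limma adjusted p = 0.00776).

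mt-Nd2 (chrM:3914-4951) and mt-Nd4 (chrM:10167-11544), membrane subunits of the proton-pumping arm, had similar values. mt-Nd2 had 123 and 178 FPKM in the tet-LIN28B IPs against 2742 and 2785 FPKM in their inputs, and 896 FPKM in the control IP against 2301 FPKM in the control input. mt-Nd4 had 124 and 197 FPKM in the tet-LIN28B IPs against 2978 and 2873 FPKM in their inputs, and 1064 FPKM in the control IP against 2365 FPKM in the control input. For each gene no value of the tet-LIN28B IPs reached that of the control IP. Differences to the control were -2.86 ± 0.35 for mt-Nd2 and -3.07 ± 0.39 for mt-Nd4 (log2, SE; limma adjusted p = 0.00851 and 0.00917).

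mt-Nd6 (chrM:13552-14070) is the only mRNA of the 13 on the minus strand, and its last 14 nt overlap those of mt-Nd5. It had 299 and 376 FPKM in the tet-LIN28B IPs and 4347 and 4070 FPKM in the inputs of the same mice. The control IP had 1701 FPKM and the control input 3326 FPKM, so its control ratio of 0.511 was the highest among the mRNAs. The difference to the control was -2.68 ± 0.33 (log2, SE; limma adjusted p = 0.00869), beside -2.86 as the median of all 13 mRNAs. Since the libraries do not mark strand, fragments of mt-Nd6 cannot be told apart from RNA of the opposite strand.

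mt-Nd1 and mt-Nd5, also membrane subunits, had the smallest of the called differences among complex I mRNAs. mt-Nd1 (chrM:2751-3707) had 722 and 868 FPKM in the tet-LIN28B IPs, 6104 and 6304 FPKM in their inputs, 2177 FPKM in the control IP and 5752 FPKM in the control input. mt-Nd5 (chrM:11742-13565), the longest mRNA at 1824 nt, had 185 and 137 FPKM in the tet-LIN28B IPs, 1227 and 1327 FPKM in their inputs, 625 FPKM in the control IP and 1312 FPKM in the control input. Their differences to the control were -1.57 ± 0.31 and -1.93 ± 0.36 (log2, SE; limma adjusted p = 0.0204 and 0.0178), and each was again below the control in both mice. The mt-Nd1 call was lost when a trend of the ratios on transcript length was removed (-1.22, adjusted p = 0.0504).

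mt-Nd4l (chrM:9877-10173) was the single mRNA not called against the control. It had 18.1 and 13.8 FPKM in the tet-LIN28B IPs and 70.96 and 38.4 FPKM in the inputs of the same mice, against 21.5 FPKM in the control IP and 80.9 FPKM in the control input. The ratios of 0.254 and 0.360 in tet-LIN28B mice lay on both sides of the 0.265 of the control, a difference of 0.20 ± 0.34 (log2, SE; limma adjusted p = 0.692). These levels are the lowest of the 13 mRNAs by far, although mt-Nd4l shares a transcript and 7 nt with mt-Nd4. They depend on how reads were divided with a nuclear copy, which is taken up below.

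mt-Cytb (chrM:14145-15288) encodes cytochrome b of complex III and had 232 and 525 FPKM in the tet-LIN28B IPs, against 8618 and 8764 FPKM in their inputs. In the control it was at 2974 FPKM in the IP and 8948 FPKM in the input. As a fold, the IP values of the tet-LIN28B mice differed from each other more than those of any other mRNA except mt-Co1, and the difference to the control was -3.04 ± 0.50 (log2, SE; limma adjusted p = 0.0142).

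The catalytic core of complex IV, cytochrome c oxidase, is encoded by mt-Co1, mt-Co2 and mt-Co3. mt-Co2 (chrM:7013-7696), which carries the site that takes electrons from cytochrome c, was among the most abundant mRNAs, at 742 and 913 FPKM in the tet-LIN28B IPs, 18877 and 15757 FPKM in their inputs, 5210 FPKM in the control IP and 16847 FPKM in the control input. mt-Co1 (chrM:5328-6872) had 169 and 537 FPKM in the tet-LIN28B IPs, 5680 and 6359 FPKM in their inputs, 2571 FPKM in the control IP and 6239 FPKM in the control input. mt-Co3 (chrM:8607-9390) had 516 and 901 FPKM in the tet-LIN28B IPs, 6419 and 6750 FPKM in their inputs, 2609 FPKM in the control IP and 6149 FPKM in the control input. All 3 were lower in each tet-LIN28B IP than in the control IP, whereas none was called between the inputs, and mt-Co1 varied most between the tet-LIN28B mice (ratios of 0.0298 and 0.0844). Differences to the control were -2.69 ± 0.35 for mt-Co2, -3.03 ± 0.61 for mt-Co1 and -2.03 ± 0.39 for mt-Co3 (log2, SE; limma adjusted p = 0.00973, 0.0212 and 0.0198). The mt-Co1 call was lost when its nuclear copies were counted in (-1.72, adjusted p = 0.0884).

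The mRNAs of the ATP synthase, complex V, had the lowest median IP/input of the complexes, at -5.77 on the log2 scale in tet-LIN28B mice. mt-Atp8 (chrM:7766-7969), a small subunit of its membrane part, had 66.1 and 116 FPKM in the tet-LIN28B IPs and 6794 and 6704 FPKM in the inputs of the same mice, against 1998 FPKM in the control IP and 7295 FPKM in the control input. mt-Atp6 (chrM:7927-8607), which forms the proton path, had 308 and 569 FPKM in the tet-LIN28B IPs and 16282 FPKM in each tet-LIN28B input, against 4345 FPKM in the control IP and 13913 FPKM in the control input. Among the 6330 tested genes mt-Atp8 had the 2nd lowest and mt-Atp6 the 18th lowest log2 IP/input in tet-LIN28B mice, and 8 of the 13 mRNAs were among the 100 lowest. Differences to the control were -4.39 ± 0.42 and -3.60 ± 0.43 (log2, SE; limma adjusted p = 0.00776 and 0.00849).

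mt-Atp8 and mt-Atp6 overlap by the 43 nt printed above and are carried by the same mature mRNA. The quotient of mt-Atp8 over mt-Atp6 FPKM was 0.214 and 0.203 in the tet-LIN28B IPs, against 0.417 and 0.412 in the tet-LIN28B inputs, with 0.460 in the control IP and 0.524 in the control input. It was lower in the tet-LIN28B IPs than in every other library. mt-Atp6 shares reads with a nuclear copy, and with that copy summed the quotient was 0.194 and 0.157 in the tet-LIN28B IPs, against 0.326 and 0.321 in the tet-LIN28B inputs, with 0.355 in the control IP and 0.403 in the control input. It was again lowest in the tet-LIN28B IPs. The tet-LIN28B IPs also had the shortest mean fragments, mt-Atp8 is 204 nt long, and the part of fragment length in this quotient was not tested.

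Several of these levels are shared with nuclear copies. A block of mitochondrial sequence on chromosome 1 from 24611535 to 24616197 (GRCm38, minus strand) is annotated as pseudogenes, and RSEM divides reads that match a gene and its copy between them. The copies shared 99.5% of the 50-nt words of mt-Co2 and of mt-Atp6, 99.9% of mt-Co3, 98.8% of mt-Nd4l, 98.0% of mt-Nd3, 62.2% of mt-Nd4 and 28.7% of mt-Co1. Of the full-length genes, 5 of 13 mRNAs, 0 of 2 rRNAs and 9 of 22 tRNAs had an exact match in the nuclear genome. In the inputs the gene itself kept 2.05% to 4.31% of the combined signal for mt-Nd4l and 16.9% to 19.7% for mt-Co3, against 85.8% to 90.2% for mt-Co2. The division was thus very uneven between genes that share nearly all of their sequence.

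Summing each gene with its copies, on the length of the gene, changed 2 calls against the control. For mt-Nd4l the combined level was 159 and 201 FPKM in the tet-LIN28B IPs, against 1975 and 1874 FPKM in their inputs, with 806 FPKM in the control IP and 1877 FPKM in the control input. The ratios became 0.0805 and 0.107 in tet-LIN28B mice, against 0.429 in the control, and the difference turned to -2.20 ± 0.33 (log2, SE; limma adjusted p = 0.0124), in the range of the other mRNAs. The combined mt-Nd4l level also came closer to that of mt-Nd4 on the same transcript, at 0.721 and 1.02 of it in the tet-LIN28B IPs and 0.651 to 0.792 of it in the other libraries. For mt-Co1 the ratios became 0.0853 and 0.239 in tet-LIN28B mice, against 0.471 in the control, and the difference of -1.72 ± 0.60 was no longer called (log2, SE; limma adjusted p = 0.0884). The copies of mt-Co1 share a small part of its length, and Gm29216 alone stood at 3458 and 8656 FPKM in the tet-LIN28B IPs, 28941 and 23279 FPKM in their inputs, 11077 FPKM in the control IP and 21031 FPKM in the control input.

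The other 5 genes that were summed with copies kept their calls. Their combined differences to the control were -2.75 for mt-Co2, -3.70 for mt-Atp6, -2.21 for mt-Co3, -3.51 for mt-Nd3 and -2.65 for mt-Nd4 (log2; limma adjusted p = 0.00833 to 0.0329). With these copies counted in, the mRNA sum was 9.63% and 10.1% of the FPKM of the tet-LIN28B inputs and 9.28% of the control input, and its IP/input ratio was 0.0454 and 0.0880 in tet-LIN28B mice, against 0.340 in the control. For the other 6 mRNAs, mt-Nd1, mt-Nd2, mt-Nd5, mt-Nd6, mt-Cytb and mt-Atp8, no copy was summed, and all 6 were called lower than the control. mt-Atp8 is nevertheless 1 of the 5 with an exact full-length match, at chr1:24614609-24614812 (GRCm38, minus strand) in the same block, where no copy of it is annotated, and how reads from that stretch were assigned was not tested.

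**Figure D3:**
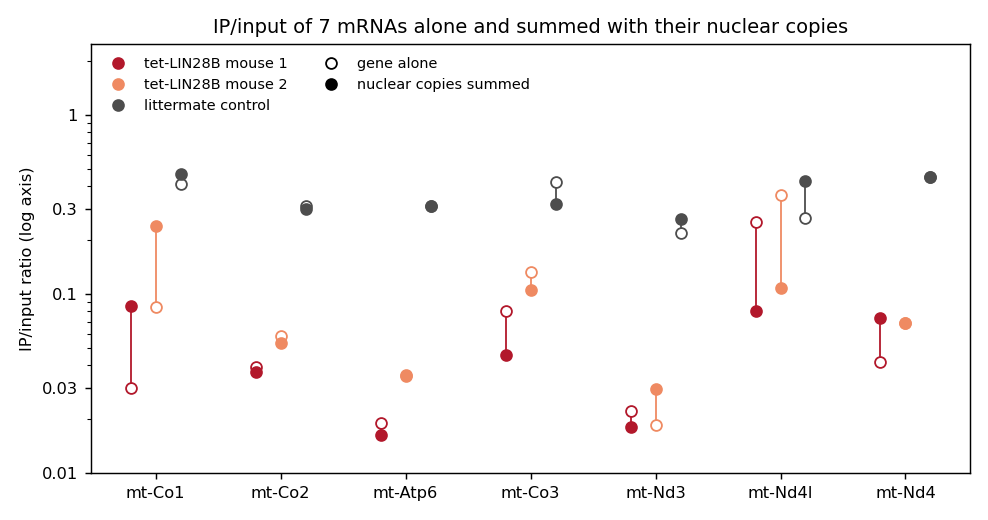
IP/input ratio on a log axis of the 7 mRNAs with annotated nuclear copies, for the gene alone (open circles) and summed with its copies (filled circles), 1 pair per mouse joined by a line (red and orange, tet-LIN28B mice 1 and 2; grey, control). mt-Nd4l moves below the control in both tet-LIN28B mice when its copy is added, and mt-Co1 moves up in all 3 mice.

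The 2 rRNAs, 12S (mt-Rnr1, chrM:70-1024) and 16S (mt-Rnr2, chrM:1094-2675), are made from the same end of the precursor but parted from each other in the IP. mt-Rnr2 had 3237 and 2553 FPKM in the tet-LIN28B IPs, 25116 and 18637 FPKM in their inputs, 5165 FPKM in the control IP and 14288 FPKM in the control input. Its ratio of 0.133 ± 0.00571 in tet-LIN28B mice (SD, n = 2) lay below the 0.362 of the control, by -1.44 ± 0.29 (log2, SE; limma adjusted p = 0.0221). Centring each ratio on the median of all genes took this call just past the threshold (-1.11, adjusted p = 0.0542).

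mt-Rnr1 had 2782 and 1130 FPKM in the tet-LIN28B IPs, 2630 and 2405 FPKM in their inputs, 712 FPKM in the control IP and 1718 FPKM in the control input. It was the only mRNA or rRNA of the 15 whose tet-LIN28B IPs both exceeded the control IP. The tet-LIN28B mice differed from each other, with ratios of 1.06 and 0.470 beside 0.415 in the control, and neither test was passed. The log2 IP/input was -0.50 ± 0.29 (SE; limma adjusted p = 0.181) and the difference to the control 0.76 ± 0.51 (adjusted p = 0.312). Under the filter of the study's methods, at least 50 FPKM in all 4 tet-LIN28B libraries, the IP was called below the input (adjusted p = 0.0261).

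The quotient of mt-Rnr1 over mt-Rnr2 was 0.859 and 0.443 in the tet-LIN28B IPs, against 0.105 and 0.129 in the tet-LIN28B inputs, with 0.138 in the control IP and 0.120 in the control input. The other 4 libraries thus kept the rRNAs in nearly the same proportion, and both tet-LIN28B IPs stood apart. The shorter gene was the one better kept, the reverse of mt-Atp8 and mt-Atp6. No test was made of this quotient.

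The tRNAs are 59 to 75 nt long, close to the shortest length at which these libraries gave any value. Among genes with 1 annotated transcript, these tRNAs included, the shortest with a value above 0 was 68 nt in both tet-LIN28B IPs and 70 and 74 nt in the tet-LIN28B inputs. It was 76 nt in the control IP and 80 nt in the control input. A tRNA at 0 in the control libraries, below 74 nt in tet-LIN28B input 2, or below 70 nt in tet-LIN28B input 1 therefore cannot be told apart from one that was given no estimate, and no fold or test is given between those libraries. mt-Tl1, at 75 nt, was the only tRNA long enough for tet-LIN28B input 2, where it had 0 fragments beside 1 in the IP of the same mouse, a difference that such counts do not resolve. Of the 14 tRNAs of 68 nt or more, 11 were above 0 in at least 1 library, and 0 of the 8 shorter ones were. The tRNAs were among the genes that set the shortest length, so the 0 for the shorter ones follows from that definition. It is no separate evidence of a length limit.

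FPKM of so short a gene rest on few fragments. The 23 tRNA values above 0 came out as whole multiples of 1 fragment (largest deviation 0.0531 fragments), so they are given as fragments. The lowest value of each length in a library meets this by construction, also where a length has a single value. mt-Ts1 had 553 and 660 fragments in the tet-LIN28B IPs, which appear as 34868 and 35202 FPKM, and 0 in the other 4 libraries. These fragments were 2.76% and 2.85% of the FPKM of the tet-LIN28B IPs but 0.00384% and 0.00377% of their estimated fragments. mt-Co2, with 742 and 913 FPKM in the same IPs, stood for about 5203 and 8022 fragments.

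mt-Ts1 made up 96.8% and 95.8% of all tRNA fragments in the tet-LIN28B IPs. mt-Te followed with 6 and 16 fragments and mt-Td (aspartate) with 5 and 3. mt-Tq had 1 and 4, mt-Ti (isoleucine) had 2 and 2, and mt-Tn and mt-Tg (glycine) had 1 in each IP. mt-Tm (methionine) and mt-Tl2 (leucine) had 1 fragment in tet-LIN28B IP 1 alone, and mt-Ta (alanine) and mt-Tl1 (leucine) had 1 in tet-LIN28B IP 2 alone. Apart from mt-Ts1 and mt-Te, no tRNA had more than 5 fragments in an IP.

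Only the 5 tRNAs of 70 nt or more can be set against tet-LIN28B input 1, which held 37 fragments of mt-Tq, 15 of mt-Tn and 1 each of mt-Td, mt-Tl1 and mt-Tl2. In that mouse the IP/input ratio was 0.0323 for mt-Tq (95% counting interval 0.000800 to 0.191) and 0.0796 for mt-Tn (0.00189 to 0.517), below 1 as for the mRNAs. It was 5.99 for mt-Td (0.670 to 283) and 1.19 for mt-Tl2 (0.0152 to 93.7), which 5 fragments or fewer do not resolve. The intervals are exact and cover counting error only, for 1 mouse. Fragments of a library amplified by PCR are not independent molecules.

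Of the 22 tRNAs, 8 lie on the minus strand. The 4 that reached 10 fragments over all libraries, mt-Ts1, mt-Te, mt-Tq and mt-Tn, were among these 8, as against 0 of the 14 on the plus strand. This split depends on the cutoff, since mt-Td on the plus strand had 9 fragments. Both strand counts include tRNAs below 68 nt, all at 0. The fragments of mt-Tq and mt-Tn came mainly from tet-LIN28B input 1, and those of mt-Ts1 and mt-Te from the tet-LIN28B IPs alone. These libraries do not mark strand, so the fragments could be of the tRNA or of the RNA opposite to it. mt-Ts1 lies opposite the end of mt-Co1, with which it shares 3 nt, and its 69 nt occur whole at exact nuclear copies on chromosomes 1 and 2. mt-Te lies between mt-Nd6 and mt-Cytb and has an exact full-length copy on chromosome 4, and mt-Tn has exact copies on chromosomes 2 and 5, whereas no exact nuclear copy of mt-Tq was found.

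**Figure D4:**
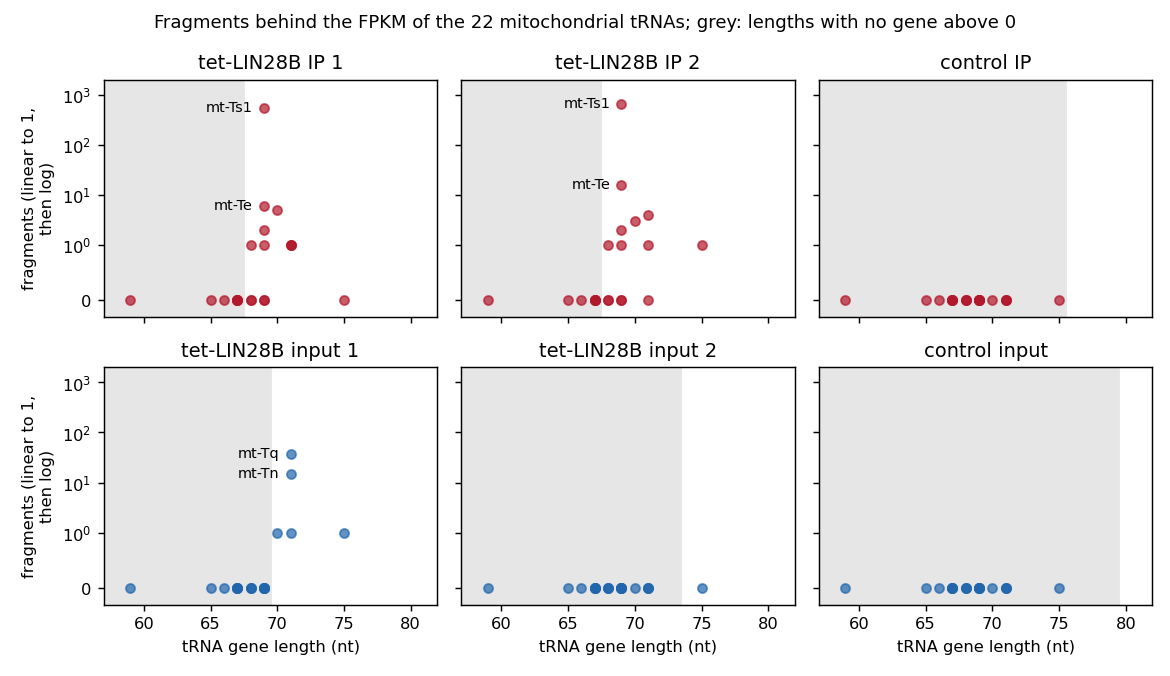
Fragments behind the FPKM of each of the 22 mitochondrial tRNAs against the length of the tRNA, 1 panel per library (IPs above, inputs below; the axis is linear up to 1 fragment and logarithmic above). Grey marks lengths below that of the shortest gene with a value above 0 in that library: mt-Ts1 stands at 553 and 660 fragments in the tet-LIN28B IPs, and all 22 tRNAs fall in the grey range in both control libraries.

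No difference between the inputs of the genotypes passed the test. With limma on log2(FPKM + 1), 0 of the 15 mRNAs and rRNAs were called between tet-LIN28B inputs and the control input, where 0.205% of all tested genes were called higher and 0.126% lower. An unadjusted p under 0.05 was found for 1 of the 15, and for 386 of the 6330 genes tested. That 1 was mt-Rnr1, with a log2 difference of 0.55 (limma adjusted p = 0.792). mRNA differences ran from -0.62 for mt-Nd4l to 0.34 for mt-Nd6 (adjusted p = 0.792 to 0.978).

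Annotated length, the median over a gene's transcripts, moved with the IP/input ratio of nuclear-encoded genes. Those of 300 to 400 nt had a median log2 IP/input of -1.83 in tet-LIN28B mice (141 genes), beside -0.30 for those of 600 to 800 nt (1449 genes) and -0.05 for those of 1600 to 2000 nt (560 genes), while the few of 200 to 300 nt were at -0.40 (34 genes). Mitochondrial mRNAs lay below the median of nuclear genes of like annotated length in all 7 length classes from 200 to 2000 nt. mt-Nd3 was at -5.60 among genes of 300 to 400 nt, mt-Co2, mt-Atp6 and mt-Co3 had a median of -4.39 among those of 600 to 800 nt, and mt-Nd5 was at -2.99 among those of 1600 to 2000 nt. With the trend on length removed from all genes, the median difference to the control was -2.51 over the 13 mRNAs, and 11 mRNAs and mt-Rnr2 stayed called. A median over annotated transcripts can differ from the length of the transcript expressed, so neither step controls for the length expressed.

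**Figure D5:**
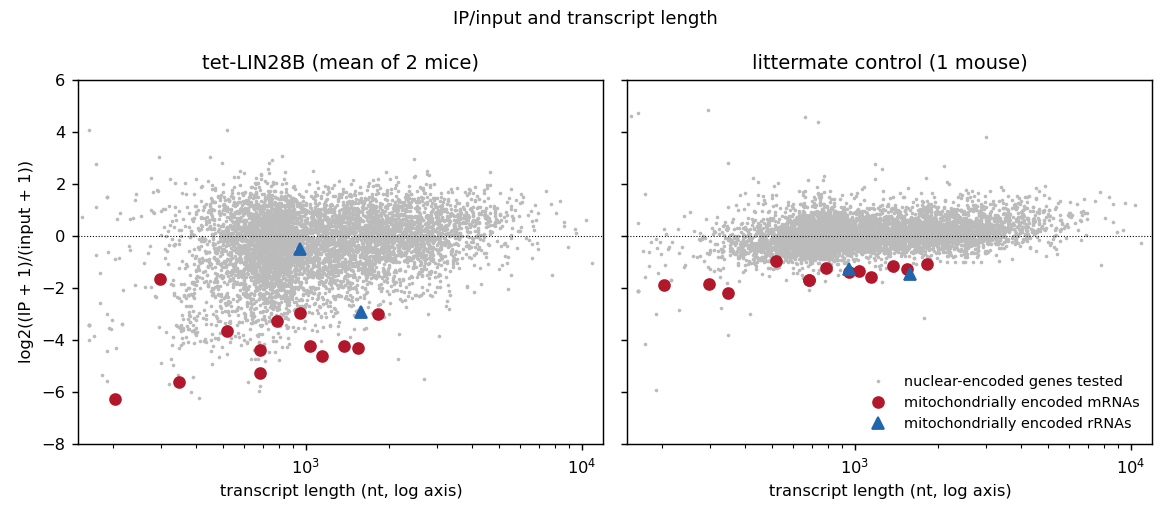
log2((IP + 1)/(input + 1)) against transcript length (median over a gene's annotated transcripts) on a log axis for the nuclear-encoded genes tested (grey), the 13 mitochondrial mRNAs (red circles) and the 2 rRNAs (blue triangles), as the mean of 2 tet-LIN28B mice at left and in the control mouse at right. The mRNAs lie low among the grey points of like annotated length in both panels, from -6.25 for mt-Atp8 to -1.66 for mt-Nd4l at left, and the grey points spread more in tet-LIN28B.

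Across the 13 mRNAs, the log2 ratios of the tet-LIN28B mice followed each other (r = 0.91, rho = 0.93), and the mean of these mice followed the control less closely (r = 0.41, rho = 0.51). With nuclear copies summed, tet-LIN28B and control ratios correlated at r = 0.82 (rho = 0.81), and the tet-LIN28B ratios with length at r = 0.63 (rho = 0.53) in place of r = 0.25 (rho = 0.26). These describe 13 genes that share libraries and precursors and are not independent.

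The GGAG motif was sparse in these mRNAs. Counted on the strand of the gene, it occurred at a median of 2.18 per kb in the 13 mRNAs. In the 5672 tested nuclear protein-coding genes, each taken as its longest annotated protein-coding transcript, the median was 6.82 per kb. The motif was found in 69.2% of the mRNAs and 99.8% of the nuclear genes. These 2 shares depend on length and were not matched for it, and the mRNAs are 204 to 1824 nt long. Mitochondrial mRNAs are poor in G, with a median of 11.1% against 25.4% in the nuclear genes. mt-Nd6 had 5 motifs (9.63 per kb) and mt-Co1 had 12 (7.77 per kb), while mt-Atp8, mt-Nd3, mt-Nd4l and mt-Co2 had 0, mt-Rnr1 4 and mt-Rnr2 5. Among the tRNAs 9.09% held it, mt-Tq and mt-Tp (proline), beside 20.4% of all 69-nt windows on both strands of the mitochondrial genome. The mean tet-LIN28B ratios of mt-Nd6 (0.0805) and mt-Co1 (0.0571) were above those of mt-Atp8, mt-Nd3 and mt-Co2 (0.0135, 0.0204 and 0.0486) and below that of mt-Nd4l (0.307). With nuclear copies summed, mt-Co1 (0.162) was above all 4, and mt-Nd6 was still below mt-Nd4l (0.0940). The other mRNAs held fewer motifs per kb than mt-Co1 and mt-Nd6. As deposited, mt-Nd1, mt-Nd5 and mt-Co3 (0.128, 0.127 and 0.107) nevertheless had higher ratios than both. mt-Nd2 and mt-Nd4 (0.0542 and 0.0551) lay below both. mt-Atp6 and mt-Cytb (0.027 and 0.0434) held motifs yet lay below mt-Co2. With copies summed, mt-Co1 exceeded every other mRNA, and mt-Co3 (0.0756) fell below mt-Nd6. The relation of ratio to motif density was not tested. A match is a string of letters and not a binding site.

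Nuclear genes whose proteins make, mature and translate mitochondrial RNA were set beside these values. Of 90 genes in 6 lists, 49 were tested. In the tet-LIN28B IPs 7 of the 49 were higher and 20 lower than in the input, where 23.8% of all tested genes were called higher and 37.8% lower. Against the control 5 had a higher and 8 a lower ratio, where 5.07% of all tested genes were called higher and 17.7% lower. The shares called lower were thus near the background. Their median log2 values of -0.37 and -0.36 lay near those of all tested genes (-0.18 and -0.30) and far from those of the 13 mitochondrial mRNAs (-4.22 and -2.86).

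Of the 8 tested genes for mitochondrial transcription, 0 had a higher and 2 a lower IP/input ratio than the control. With 17.7% of all tested genes called lower and 5.07% higher, 1 or 2 calls in either direction in a list of 6 to 10 genes, as in this list and those that follow, are not a result about the list. Polrmt, the mitochondrial RNA polymerase, had ratios of 0.333 and 0.499 in tet-LIN28B mice, against 1.397 in the control (-1.66, limma adjusted p = 0.0266), and Mterf3, a transcription termination factor family member, had 0.153 and 0.170 against 0.764 (-2.07, adjusted p = 0.0118). Tfam, which packages mitochondrial DNA and acts in its transcription, and Mterf1a were not called (0.52 and -0.28). Of 6 genes for RNA processing and tRNA maturation, Trit1, which modifies tRNAs, was higher (ratios of 3.45 and 3.66 in tet-LIN28B mice, against 0.935 in the control, 1.85, adjusted p = 0.0139) and Hsd17b10, a subunit of mitochondrial RNase P, was lower (-1.60, adjusted p = 0.0171). Pus1 and Trmt61b were at 0.30 and -0.74 and were not called.

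Of 10 genes for mRNA stability and polyadenylation, Fastkd3 was higher than the control (1.22, limma adjusted p = 0.0374) and Mtpap, the mitochondrial poly(A) polymerase, was lower (-1.59, adjusted p = 0.0283), while Ptcd3 (0.26) and Ptcd2 (-0.87) were not called. Of 9 genes for rRNA modification and ribosome assembly, Trub2, a pseudouridine synthase, was higher (1.39, adjusted p = 0.0236) and Mpv17l2 was lower (-2.60, adjusted p = 0.0251), with Dhx30 at 0.31 and Rbfa at -1.09 not called. Of 7 genes listed under translation, 2 were lower: Tufm, the mitochondrial elongation factor Tu (-1.47, adjusted p = 0.0438), and Malsu1 (-1.47, adjusted p = 0.0213), with Gfm2 at 0.59 and Mtrf1l at 0.20. Of 9 genes for charging tRNAs with amino acids, the synthetase genes Tars2 and Fars2, for threonine and phenylalanine, were higher (1.17 and 1.16, adjusted p = 0.0357 and 0.0378). Lars2, the synthetase gene for leucine, was lower (-1.73, adjusted p = 0.0173), and Qrsl1, which is not a synthetase gene, was at -1.27 (adjusted p = 0.05004, not called).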

How the data were processed

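RIP-seq libraries were made by the authors from 20 ng of RNA with oligo(dT)-primed SMART-Seq v4 cDNA, which does not mark strand, and Nextera XT. The submitters' notes name STAR 2.7.1, RSEM 1.28 and mm10, and the authors deposited FPKM. No source used here gives the annotation release. Fractions and genotypes were taken from sample titles and column names. The labels give Dox at 0.1 mg/mL and the methods a smaller unit. Each description ends with the name of the other fraction than the title has, and titles were followed.

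Symbols were matched to GENCODE M21 (54092 of 54752, all 37 mitochondrial genes), and length was the median over a gene's transcripts. Genes averaging at least 10 FPKM over the 6 libraries were kept. limma 3.58.1 (R 4.3.3) was fitted to the log2((IP + 1)/(input + 1)) values with genotype as factor and a variance trend, Benjamini-Hochberg adjustment over 6330 genes and a threshold of 0.05. The filter of the methods removes genes low in the IP, so it served as an alternative. The spread of the single control mouse was taken to equal that between tet-LIN28B mice. A permutation of 2 against 1 cannot go below p = 0.333. Each ratio pairs IP and input of the same animal, which makes the mouse a block. Between the tet-LIN28B mice, differences in input and IP correlated at 0.17 across genes. Fold changes understate those of low genes because of the pseudocount of 1 FPKM.

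Depth and mean fragment length were estimated in Python 3.11.15 from genes at low FPKM, of which 86.8% to 89.9% came within 0.2 of a whole fragment (482 to 707 genes per library), so the depth is an estimate. Nuclear copies sharing at least 25% of a gene's 50-nt words were summed with it as FPKM times length. The fits were tested on simulated data.

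Named genes were all mRNAs and rRNAs, tRNAs averaging at least 10 FPKM, and the 2 highest and 2 lowest tested members of each list by difference to the control. mt-Ta, Gm29216, Gm28439 and mt-Tp were named after their values were seen. The genes, lists and tests were chosen with earlier results of these data known. Alternatives changed the pseudocount, filter, scaling, trend, block and length correction and left out each tet-LIN28B mouse.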

Additional observations from a re-analysis of the deposited data

Results flagged for a closer look

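The effect of the IP differed between genotypes, by the limma test of tet-LIN28B minus control, for 13 of the 15 mitochondrial mRNAs and rRNAs. The log2 differences were -4.39 for mt-Atp8, -3.60 for mt-Atp6, -3.41 for mt-Nd3, -3.07 for mt-Nd4, -3.04 for mt-Cytb, -3.03 for mt-Co1, -2.86 for mt-Nd2, -2.69 for mt-Co2, -2.68 for mt-Nd6, -2.03 for mt-Co3, -1.93 for mt-Nd5, -1.57 for mt-Nd1 and -1.44 for mt-Rnr2. In each case the ratio was lower than the control in 2 of 2 tet-LIN28B mice. With nuclear copies summed, mt-Co1 was at -1.72 and no longer called (limma adjusted p = 0.0884). All 13 rest on 1 control mouse.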

How the results depend on the processing

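The lower IP of the mRNAs and rRNAs was called by limma for 14 genes, and again for 14 under 11 of the 13 alternatives in fitting and values. Under the methods' filter these were not the same 14, as mt-Nd4l was left out and mt-Rnr1 was called (limma adjusted p = 0.0261). The lower IP was called for 13 with a mean of at least 50 FPKM, which also leaves out mt-Nd4l. With no filter it was called for 0, where 14 had an unadjusted p under 0.05. Relative to the control 13 were called lower, against 0 with all genes averaging at least 1 FPKM (13 at an unadjusted p under 0.05), 0 with no filter (9) and 7 with no replicate block (13). The difference of mt-Nd4l turned to -2.20 with nuclear copies summed, an alternative chosen after seeing the data. The differences to the control were also counted as pairs of 1 gene and 1 alternative. Of these pairs, 157 stayed on the same side of the threshold, 35 were no longer called and 1 reversed. The 35 include 13 from the filter at a mean of at least 1 FPKM and 13 from no filter. The median log2 IP/input of the mRNAs ranged from -4.58 to -3.86 and their difference to the control from -3.11 to -2.47 when either tet-LIN28B mouse was left out, and no test was then possible with 1 mouse per genotype. For the rRNAs these medians ranged from -1.98 to -1.44 and from -0.61 to -0.07.

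Scaling moved all genes together: the median difference to the control of all tested genes was -0.30 as deposited, -0.46 as TPM, -0.47 scaled to genes not mitochondrially encoded and 0.03 when centred, with 321 higher and 1118 lower calls as deposited, 673 and 849 when centred, and 339 and 324 under the methods' filter. The direction of no mRNA turned with scaling. Depth limits the tRNAs, where all values other than those of mt-Ts1 rest on 37 fragments or fewer. A tRNA below the shortest measured length cannot be told apart from one that was given no estimate.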
